A study of Mus musculus with 12 samples.

Results

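The basal state of C57MG cells, a mouse mammary epithelial cell line, was described from the 3 samples given bovine serum albumin (BSA), the carrier of the recombinant proteins, of 12 samples in the series. The members were chosen by their label alone. The cells had been grown in DMEM with 10% fetal bovine serum and 10 μg/ml insulin, were moved to plain DMEM and kept with BSA for 24 h, and carried no transgene or added growth factor named in the labels. The study compared such cells with cells given R-spondin2, Wnt3a or both, and those 9 samples were not used here. Each of the 3 monolayers was hybridized in a single color to its own array of oligonucleotide probes, and all 3 arrays lay on 1 slide. No comparison of treatments and no test was made, since the samples form 1 group.

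Signal is given as log2 of the background-subtracted intensity less log2 of the array's 75th percentile, so that 0 stands for the 75th percentile of all probes. A gene was called detected when its probe was well above background, by the flag of the scanner software, on all 3 arrays, and each gene was represented by its brightest detected probe. For a gene not detected, the signals and the arrays passed are those of its brightest probe. Of 19512 named genes on the array, 11477 were detected, which is 58.8%. The percentile of a gene is the percent of the other detected genes with a lower signal, and its range is that over the 3 arrays taken singly. The lowest signals well above background lay at -5.44, -4.76 and -4.90 on replicates 1, 2 and 3.

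Percentiles describe the order of the signals and carry 2 errors. Between arrays the order was close to fixed: the correlation of log2 signals over the 11477 detected genes was 0.9958 for replicates 1 and 2, 0.9947 for 1 and 3 and 0.9974 for 2 and 3, and the median SD of a gene's percentile was 1.07 points. Between probes of 1 gene it was not. In the 5215 genes with at least 2 detected probes, the brightest probe and the next lay a median of 13.9 percentile points apart (1.16 on the log2 scale), and in 10% of them 48.9 points or more. Actb, the cytoplasmic β-actin and a common reference gene, was unsteady between arrays: both of its probes were detected, and the brighter read 1.91, 0.03 and 1.17 on replicates 1, 2 and 3, at the 54.7 percentile (range 38.7 to 69.1). Signals of different genes within 13.9 points of each other therefore have no settled order. A wider gap does not by itself settle it, since 13.9 is a median and probes not detected were left out of it. No statement here compares amounts of mRNA between genes. In RNA from whole monolayers, fewer cells of a type and less RNA per cell cannot be told apart.

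Replicate 1 had more probes above background than the other arrays. On it 64.1% of probes were well above background, against 53.2% and 54.5% on replicates 2 and 3, and the median of its negative control spots after background subtraction was 4.91 intensity units against 9.20 and 7.96. The requirement of all 3 arrays was therefore set mainly by replicates 2 and 3: 1967 of the genes not detected were above background on replicate 1 alone.

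The mammary epithelium is built of an inner layer of luminal cells, which carry simple keratins, E-cadherin and tight junctions and make milk, and an outer layer of basal or myoepithelial cells, which carry keratins 5 and 14 and the factor p63 and contract through smooth muscle actin. Both layers rest on a basement membrane, and the stroma around them holds fibroblasts that make fibrillar collagen and express vimentin and platelet-derived growth factor receptors. Wnt proteins are lipid-modified ligands that bind Frizzled receptors with the co-receptors Lrp5 and Lrp6, and their canonical branch stabilizes β-catenin, which activates genes with Tcf and Lef factors.

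The labelled cell type, mammary epithelial, was first compared with its markers. Of 10 markers of simple epithelium, Krt8 alone was detected, and it was dim. Basal markers were detected for 5 of 6, led by Krt14, and mesenchymal markers for 10 of 11, led by Vim and Col1a1, against 58.8% of all genes. Of the basal markers Krt5 and Itgb4 were as dim as Krt8. The defining markers of luminal epithelium were thus mostly below detection, while basal and mesenchymal markers were measured in the same RNA. The plot of cell type markers by array shows these classes.

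**Figure D1:**
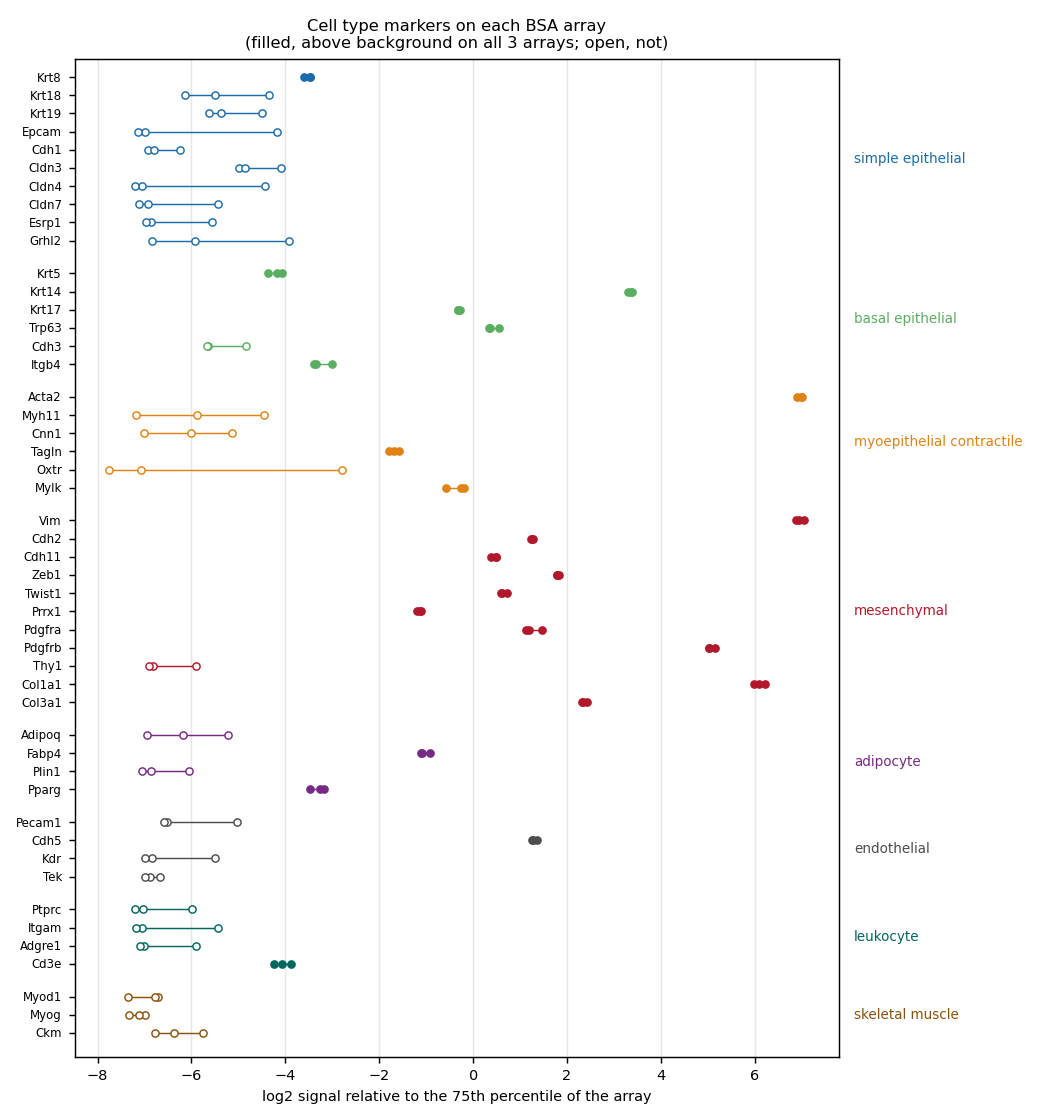
Log2 signal, relative to the array's 75th percentile (x axis), of the markers of 8 cell types (y axis) on each of the 3 BSA arrays. Each point is 1 array and the line joins the lowest and the highest. Filled points are genes above background on all 3 arrays and open points are genes that were not. In the simple epithelial class 1 of 10 genes is filled, and in the mesenchymal class 10 of 11.

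Krt8, a keratin of simple epithelia, read -3.47, -3.60 and -3.47 on replicates 1, 2 and 3, at the 6.12 percentile. Its partner Krt18 read -4.36, -6.14 and -5.500 and was above background on replicate 1 alone, as was Krt19 at -4.498, -5.63 and -5.37. Cdh1, which encodes E-cadherin, read -6.25, -6.93 and -6.79 and was above background on no array. The only simple keratin detected was thus Krt8, at a low percentile. Epcam, an epithelial adhesion molecule, read -4.18, -6.99 and -7.14, and the value of replicate 1 stood apart from those of the others. The claudins of epithelial tight junctions were not detected either: Cldn3 was above background on 2 arrays (-4.09, -4.99 and -4.85), Cldn4 on replicate 1 (-4.43, -7.06 and -7.19) and Cldn7 on none (-5.44, -6.94 and -7.12).

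Over the wider list of epithelial keratins and adhesion genes, 5 of 30 were detected (16.7%, against 58.8% of all genes). Above background on no array were 10 of the 30, and 5470 of all 19512 genes. Detected members included Pkp2, a desmosomal plaque protein, at the 72.9 percentile, the tight junction scaffold Tjp1 at the 49.1, Pkp3 at the 9.81, and Krt8. A tight junction scaffold and 2 plakophilins were thus measured, whereas occludin (Ocln), desmoplakin (Dsp, 0 of 4 probes), plakoglobin (Jup) and the proteases and inhibitors St14, Spint1 and Spint2 were not detected.

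Regulators of the epithelial state gave a similar picture. Of 15 on the array, 4 were detected (26.7%, against 58.8% of all genes). They were Klf4 at the 92.1 percentile, Gata3, a luminal factor, at the 63.5, Tfap2a at the 44.7 and Klf5 at the 43.8. Esrp1, a splicing regulator of epithelia, read -5.56, -6.87 and -6.97 on replicates 1, 2 and 3 and was above background on no array, and Grhl2, which maintains epithelial junctions, read -3.92, -5.93 and -6.85 and passed on replicate 1 alone. Elf5 and Ehf, factors of luminal and secretory cells, Ovol1 and Foxa1 were also not detected. Gata3 read 1.79, 1.49 and 1.40, so that it lay well over the floor on every array.

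Genes of hormone response and milk were detected for 8 of 22 (36.4%, against 58.8% of all genes). Milk protein genes (Csn1s1, Csn1s2a, Csn2, Csn3, Wap and Lalba) were not detected. Mfge8, a milk fat globule protein that many cell types also make, read 4.28, 4.31 and 4.25, at the 94.1 percentile. Esr1, the estrogen receptor α, was dim at the 14.95 percentile (-2.25, -2.18 and -2.07), Prlr, the prolactin receptor, lay at the 0.37 with 1 of its 3 probes detected, and Pgr, the progesterone receptor, was above background on no array. Stat5b and Stat5a, which carry prolactin signals, were at the 58.3 and 34.2 percentiles, and Areg, an epidermal growth factor receptor ligand, at the 61.7.

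Basal epithelial genes were detected for 12 of 20 (60.0%), close to the share of all genes, with a median percentile of 37.8. Krt14, a keratin of basal cells, read 3.30, 3.39 and 3.37 on replicates 1, 2 and 3, at the 87.5 percentile (range 86.9 to 87.96). Its usual partner Krt5 was near the bottom of the order, with -4.36, -4.18 and -4.07 and the 1.61 percentile. Krt14 and Krt5 thus lay toward opposite ends of the order of signals. Each had 1 probe, and whether probe affinity accounts for the gap was not tested. Trp63, which encodes p63, read 0.56, 0.33 and 0.36, at the 44.2 percentile, and its other probes read -2.03 and -3.15 on average. Krt17 and Krt16, keratins of activated and appendage epithelium, lay at the 33.9 and 38.8 percentiles.

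Among the other basal genes, Itga6, the laminin receptor subunit α6, read 2.07, 2.06 and 2.12, at the 72.01 percentile. Its partner Itgb4 read -2.998, -3.38 and -3.36, at the 7.90. Sfn, an epithelial stratifin, had the highest percentile of the list, 95.9, but its probes disagreed: the brightest averaged 4.73 and the others -3.88 and -4.63. Lamb3, a chain of an epithelial laminin, was detected at the 12.2 percentile, while another chain gene, Lama3, passed on 2 arrays. Cdh3 (P-cadherin), Krt15, Krt6a, Dsg3 and Procr were not detected.

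Contractile genes were detected for 13 of 20 (65.0%, against 58.8% of all genes). Their median percentile was 83.8, and 5 of the 13 lay in the brightest 10% of detected genes. Acta2, the smooth muscle actin of myoepithelial cells and myofibroblasts, read 6.99, 6.91 and 6.999 on replicates 1, 2 and 3, at the 99.5 percentile, with 4 of 5 probes detected. Tpm1, a tropomyosin, read 5.98, 6.06 and 6.07 (98.6 percentile), and Actg2, the enteric smooth muscle actin, read 4.04, 3.88 and 4.001 (92.3). Actin genes are near-identical in their coding sequence, so the signals of Acta2, Actg2 and Acta1 (at the 55.1 percentile, in the skeletal muscle list) may be partly shared. Cald1, Tagln2 and Cnn2, found in many adherent cells, lay at the 83.8, 96.3 and 93.8 percentiles.

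Markers of mature contractile cells were mixed. Smtn, smoothelin, lay at the 60.3 percentile and Lmod1, leiomodin, at the 32.8, and Tpm2 was dim (6.24). Cnn1 (calponin) read -5.15, -7.01 and -6.02 and Myh11, the smooth muscle myosin heavy chain, -4.46, -5.89 and -7.18, and each passed on replicate 1 alone. Oxtr, the oxytocin receptor through which myoepithelial cells contract, read -7.75, -7.08 and -2.78, so that replicate 3 stood apart from the other arrays. Tagln read -1.68, -1.80 and -1.58, at the 18.7 percentile, and Mylk, the myosin light chain kinase, lay at the 33.4. Of their regulators, Mkl1 and Srf were at the 85.8 and 38.3 percentiles and Myocd, the cofactor of smooth muscle cells, was above background on no array. The percentile of Mkl1 came from a probe named by an older symbol, and its probe named by accession averaged -2.87.

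Mesenchymal genes were detected for 22 of 28 (78.6%, against 58.8% of all genes), with 7 of the 22 in the brightest 10%. S100a4 and S100a6, small calcium-binding proteins, were the fifth and eighth brightest genes of all, with 8.17, 8.12 and 8.17 and 8.05, 7.96 and 7.90 on replicates 1, 2 and 3. Vim, the intermediate filament vimentin, read 6.93, 7.05 and 6.87, at the 99.4 percentile, with 1 of 2 probes detected (the other averaged -6.28). Pdgfrb, a receptor of fibroblasts and pericytes, read 5.15, 5.03 and 5.03 (96.97 percentile), and Pdgfra 1.46, 1.13 and 1.18 (58.3). Each of these lay above 0 on every array, in the upper part of the order. Ly6a, which encodes Sca-1, and Cd44, the hyaluronan receptor, were also bright, at the 98.4 and 87.3 percentiles.

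All 6 listed members of the Zeb, Snail and Twist families, factors that repress epithelial genes, were detected. Zeb1 read 1.84, 1.78 and 1.79 (67.7 percentile), Zeb2 lay at the 50.7, Snai2 at the 84.6, Snai1 at the 50.3, and Twist1 read 0.59, 0.72 and 0.62 (47.9), with Twist2 at the 59.1. Foxc1 and Prrx2 were brighter, at the 92.8 and 87.9 percentiles, and Prrx1 dimmer, with -1.11, -1.20 and -1.13 (23.97). Of the cadherins, Cdh2 (N-cadherin) read 1.28, 1.25 and 1.23 and Cdh11 0.49, 0.39 and 0.48, at the 58.3 and 44.7 percentiles. Cdh2 was detected by 1 of its 3 probes, and the others averaged -4.46 and -5.90. Not every stromal marker was there: Thy1 read -5.91, -6.82 and -6.90 and was above background on no array, nor were Fap and Foxc2. The plot of signal by rank places these markers along the order of all detected genes.

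**Figure D2:**
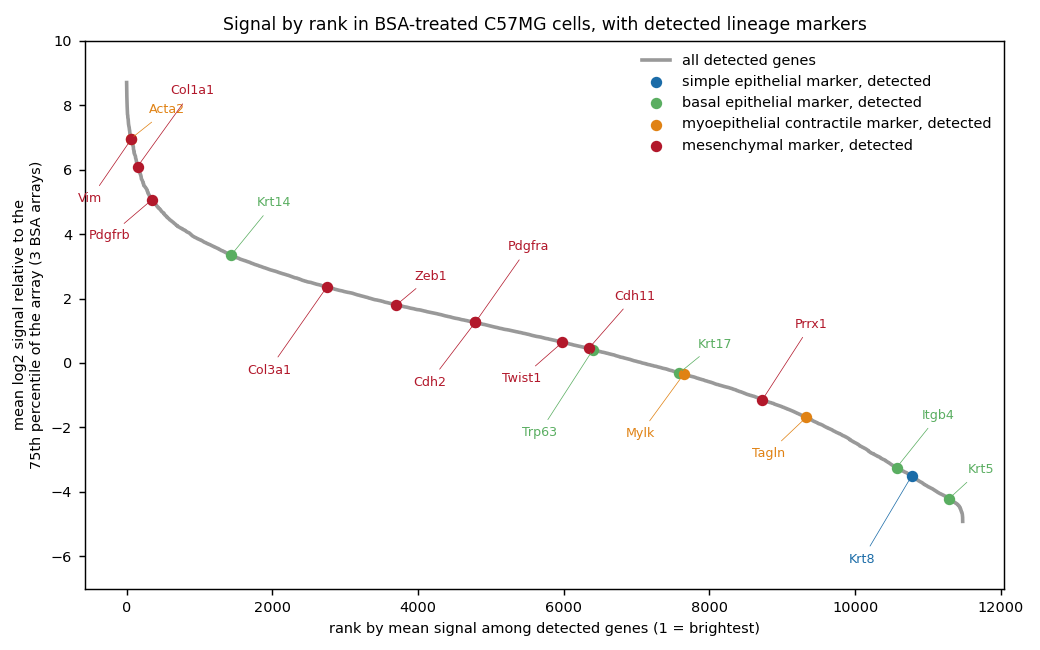
Mean log2 signal over the 3 BSA arrays, relative to the array's 75th percentile (y axis), against rank among the 11477 detected genes (x axis, 1 is the brightest). The grey line is all detected genes and the points are the detected markers of 4 classes. Acta2, Vim and Col1a1 lie at the bright end, Krt14 follows, and Krt8 and Krt5 lie at the dim end.

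Genes of other cell types that a culture could hold were also listed. Leukocyte genes were detected for 7 of 14, against 58.8% of all genes, with a median percentile of 9.07: Ptprc, the pan-leukocyte CD45, and the macrophage genes Adgre1 and Itgam were above background on no array, while Cd3e, of T cells, lay at the 2.68. The myeloid genes Cd68, Fcer1g and Csf1r were detected, at the 15.99, 12.4 and 1.20 percentiles, and Coro1a, of leukocytes at large, at the 9.07. The brightest of that list was Lyz2, lysozyme, at the 45.1. Endothelial genes were detected for 3 of 12. Cdh5 (VE-cadherin) read 1.26, 1.36 and 1.27 (59.05 percentile) and Flt1 lay at the 61.8, whereas Kdr, Tek and Tie1 were above background on no array and Pecam1 on replicate 1 alone (-5.03, -6.53 and -6.58). Adipocyte genes were detected for 6 of 14: Cebpb (97.96), Adipor1 (83.8) and Cebpd (79.1), which many cell types express, lay high, Fabp4 and Pparg lay at the 24.97 and 7.46, and Adipoq, Lpl and Plin1 were not detected. Of 10 skeletal muscle genes Acta1 alone was detected, and Myod1, Myog and Ckm were above background on no array.

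Genes of the extracellular matrix were among the bright ones. Fibrillar collagens give stroma its strength, network collagens and laminins form basement membrane, and a set of enzymes and chaperones folds, crosslinks and cuts them. Collagen genes were detected for 19 of 25 (76.0%, against 58.8% of all genes). Their median percentile was 76.0 (range over arrays 75.04 to 77.6). Col1a1, the α1 chain of type I collagen, read 6.23, 6.09 and 5.98 on replicates 1, 2 and 3, at the 98.7 percentile, and its partner Col1a2 read 3.83, 3.92 and 3.88 (91.6). Col3a1, of type III collagen, read 2.33, 2.31 and 2.43 (76.05), with 1 of its 3 probes detected. Of the type V chains, Col5a1 lay at the 97.3 percentile through its brightest probe, which averaged 5.19. Its other probe was also detected and averaged -2.73. Col5a2 lay at the 0.98, so a difference between the 2 chains is not settled.

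The basement membrane chains Col4a1 and Col4a2 lay at the 82.2 and 84.001 percentiles, and Col4a3 was above background on no array. Col6a1 and Col6a2 were at the 92.7 and 57.7 percentiles. Col6a3 was at the 96.8 through its brightest probe, while its other probes averaged -3.34 and -4.29. Col8a1 and Col16a1 were bright (94.05 and 86.5). Cartilage collagens were dim or not detected, with Col2a1 at the 11.9 percentile and Col9a1 and Col10a1 not detected.

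Of the matrix glycoproteins and proteoglycans, 24 of 43 on the array were detected (55.8%, against 58.8% of all genes). The detected ones lay at a median percentile of 67.8. Spp1, osteopontin, read 7.30, 7.37 and 7.35 on replicates 1, 2 and 3, at the 99.73 percentile. Sparc, a collagen-binding protein, read 5.94, 6.19 and 6.09 (98.6), Ecm1 lay at the 98.2, and Fn1, fibronectin, read 4.93, 5.20 and 5.505 (97.3). Postn (periostin), Thbs1 (thrombospondin) and Ccn1 lay at the 86.3, 88.5 and 88.3 percentiles. Other matricellular genes lay lower: Ccn2, Ccn5 and Tnc (tenascin C) were at the 61.4, 56.9 and 53.02 percentiles, and Thbs2, Ccn3 and Tgfbi were not detected. Small proteoglycans were mixed too: Ogn lay at the 81.1 and Bgn at the 60.6, Dcn (decorin) at the 2.44 (-4.06, -4.05 and -4.16), and Lum and Vcan (0 of 5 probes) were not detected. Laminin chains were detected for Lamc1 (89.7), Lamb2 (68.6), Lama5 (66.97) and Lamb1 (63.4), but not for Lama1, Lama2 or Lama4, nor were the nidogens Nid1 and Nid2. Elastic fiber genes were split, with Efemp2 at the 92.6 and Fbn1 at the 57.2 percentile and Eln and Fbln5 not detected.

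Matrix processing genes were detected for 28 of 35 (80.0%, against 58.8% of all genes). Their median percentile was 72.9, and 8 of the 28 lay in the brightest 10%. Pcolce, which aids the cleavage of procollagen, read 6.496, 6.42 and 6.40 (98.98 percentile), and Serpinh1, the collagen chaperone Hsp47, read 6.36, 6.32 and 6.25 (98.9). The crosslinking enzymes Lox and Loxl1 lay at the 91.7 and 87.5 percentiles and the proline hydroxylase P4ha2 at the 89.5. Among proteases, Mmp14, a membrane-bound collagenase, was the brightest metalloprotease of the list at the 95.97 percentile (4.89, 4.83 and 4.58), Mmp11 and Mmp3 were at the 73.7 and 61.9, Mmp2 at the 33.4, and Mmp7, Mmp9 and Mmp13 were not detected. Their inhibitors Timp1, Timp2 and Timp3 lay at the 93.3, 96.1 and 79.9. The lysosomal proteases Ctsl and Ctsb read 5.69, 5.52 and 5.499 and 5.61, 5.52 and 5.48, so that both lay near the top of the order.

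Integrins, which bind matrix as pairs of α and β chains, were detected for 12 of 17 (70.6%, against 58.8% of all genes). Itgb5 lay highest, at the 96.1 percentile (4.80, 4.80 and 4.74), followed by the collagen receptor chain Itga11 (87.1), the laminin receptor chain Itga3 (86.2) and Itgb1 (85.6), the common partner of many α chains. All 4 lie within 13.9 points of each other, so their order is not settled. Itgav lay at the 72.6 by a probe named from the files' symbol, and its probe named by accession averaged -1.55. Itga2, Itga4, Itga8, Itga9 and Itgb6 were not detected.

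**Figure D3:**
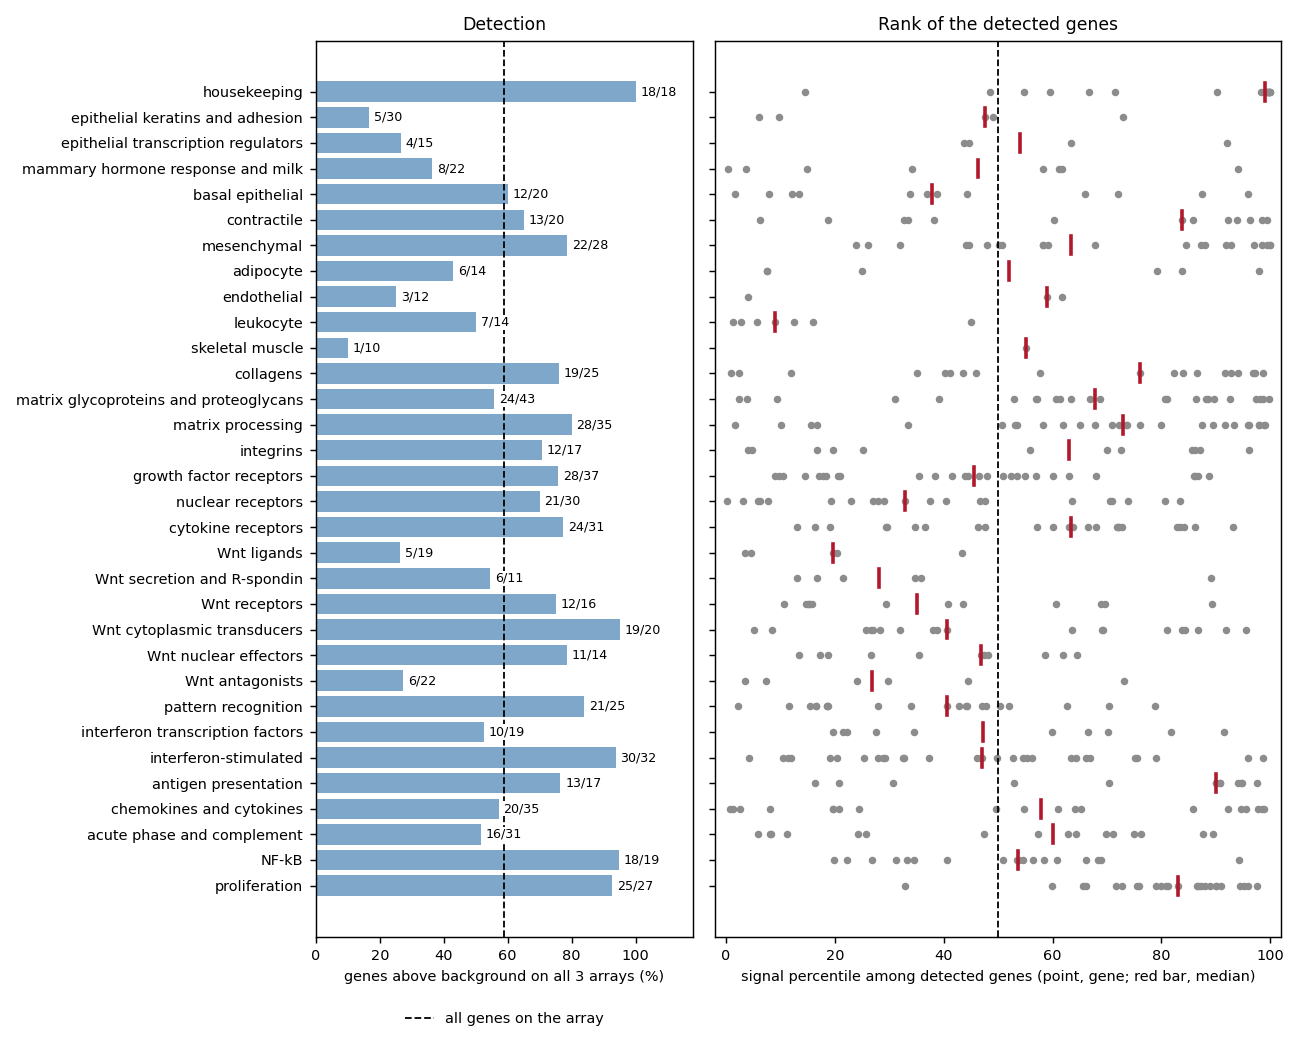
Left, percent of the genes of each of 32 lists that were above background on all 3 BSA arrays (x axis), with the number detected over the number on the array; the dashed line is the value for all genes, 58.8%. Right, signal percentile among the 11477 detected genes (x axis) of each detected member (points) and the median of each list (red bar); the dashed line is 50. Detection runs from 1 of 10 skeletal muscle genes to 18 of 18 housekeeping genes.

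Growth factor receptors were detected for 28 of 37 (75.7%, against 58.8% of all genes), and none of the 28 lay in the brightest 10%. Their median percentile was 45.5. Pdgfrb, a bright growth factor receptor, was counted in the mesenchymal list. Igf2r, which clears insulin-like growth factor II, read 3.57, 3.47 and 3.498 (88.8 percentile), Igf1r, the signaling receptor, lay at the 60.2, and Insr, the insulin receptor, at the 18.3. Insr was called detected by a probe named by an older symbol, while its probe named by accession averaged -5.58 and passed on 1 array. The collagen receptor kinase Ddr1, the ephrin receptor Epha2 and Axl were at the 86.7, 86.2 and 85.97 percentiles. The epidermal growth factor receptor family was lower: Egfr read -1.22, -1.55 and -1.505 (20.97), Erbb2 -0.39, -0.16 and -0.003 (35.5), and Erbb3 was not detected with any of 5 probes. Erbb4 was called detected by 1 of its 3 probes, which was named from the files' symbol and averaged 0.98, while the others averaged -6.86 and -7.31.

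Of the fibroblast growth factor receptors, Fgfr1 lay at the 41.6 percentile and Fgfr2 at the 17.7. Met, the receptor of hepatocyte growth factor, lay at the 52.4 by a probe named by an older symbol, while its probe named by accession averaged -2.38. In the transforming growth factor β family the type I and II receptors Tgfbr1 and Tgfbr2 were at the 46.5 and 56.97 percentiles and the bone morphogenetic protein receptors Bmpr2 and Bmpr1a at the 67.9 and 63.04, while Bmpr1b and Acvrl1 were above background on no array. The percentile of Bmpr2 came from a probe named from the files' symbol, and its probe named by accession averaged -2.81. Both branches of the family thus had a detected receptor of each type.

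Nuclear receptors were detected for 21 of 30 (70.0%, against 58.8% of all genes). Their median percentile was 32.9, and none lay in the brightest 10%. Nr2f2 (COUP-TFII) lay highest at the 83.5 percentile, then Thra, the thyroid hormone receptor α, at the 80.7, Nr3c1, the glucocorticoid receptor, at the 73.9, Vdr, the vitamin D receptor, at the 70.9 and Rxra at the 70.6. Ahr, the aryl hydrocarbon receptor, read -0.54, -0.85 and -0.93 on replicates 1, 2 and 3, at the 27.9 percentile, and its partner Arnt lay at the 37.4. Thrb, the thyroid hormone receptor β, was above background on no array.

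Cytokine receptors were detected for 24 of 31 (77.4%, against 58.8% of all genes), at a median percentile of 63.4. All 4 chains of the type I and type II interferon receptors were detected: Ifngr1 lay at the 84.1 percentile, Ifnar2 at the 63.8, Ifngr2 at the 60.2 and Ifnar1 at the 47.7. Ifnlr1, the specific chain of the interferon λ receptor, read -7.63, -6.98 and -7.13 and was above background on no array. Il6st, the gp130 chain shared by interleukin 6 type receptors, lay at the 71.8, with Osmr at the 72.1, Il11ra1 at the 82.9 and Il6ra at the 16.4. Il17rc was the brightest of the list at the 93.2, and the tumor necrosis factor receptor Tnfrsf1a and Ltbr lay at the 83.5 and 86.1 percentiles. Cd40, Cxcr4 and Cxcr6 were not detected.

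The Wnt genes were ordered by role. Ligands were detected for 5 of 19 (26.3%, against 58.8% of all genes) and none lay in the brightest 25% of detected genes. Wnt5a, a ligand mostly linked to β-catenin-independent signals, read 0.53, 0.38 and 0.14 on replicates 1, 2 and 3, at the 43.3 percentile (range 40.2 to 46.1). Wnt4 read -1.36, -1.43 and -1.68 (20.3) and Wnt9a -2.06, -1.61 and -1.07 (19.6). Wnt6 and Wnt5b were dim, at the 4.69 and 3.58 percentiles. Wnt6 was called detected by a probe named from the files' symbol. Its probe named by accession averaged -6.53 and was above background on no array. Wnt1, Wnt3a and Wnt10b, ligands of the canonical branch, were above background on no array, with Wnt3a at -7.64, -7.0002 and -7.14. Wnt7b, Wnt8a and Wnt11 passed on 2 arrays.

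Genes of Wnt secretion were detected: Wls, the carrier of Wnt proteins to the cell surface, read 3.65, 3.51 and 3.53 (89.2 percentile), and Porcn, the acyltransferase that adds their lipid, read -1.46, -1.28 and -1.37 (21.5). Rspo1, Rspo2, Rspo3 and Rspo4, which encode the R-spondins, were above background on no array; Rspo2 read -7.47, -6.92 and -6.97. Of the R-spondin receptors, Lgr4 read -0.04, -0.33 and -0.14 (35.8) and Lgr6 -1.97, -1.83 and -1.97 (16.8). Lgr5 read -5.19, -7.01 and -4.56, passed on 2 arrays and was not called detected. The ubiquitin ligases that remove Frizzled receptors, Znrf3 and Rnf43, lay at the 34.7 and 12.97 percentiles. The R-spondin genes were thus at background while at least 2 of their receptors were not.

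Receptors were detected for 12 of 16. The kinase-like receptor Ryk read 3.71, 3.58 and 3.46 (89.3 percentile) and Ptk7 1.53, 1.95 and 2.31 (69.6). Of the 10 Frizzled genes 7 were detected, in the order Fzd2 (68.9), Fzd1 (60.7), Fzd6 (40.8), Fzd7 (29.3), Fzd8 (15.8), Fzd4 (15.2) and Fzd5 (10.7). Neighbours in this order lay within 13.9 points of each other, except Fzd1 and Fzd6. That gap stayed under the 48.9 points given above for probes of 1 gene, so the order of neighbours is not settled. The other probe of Fzd2 was also detected and averaged -2.17, against 1.88 for the brightest. Fzd3, Fzd9 and Fzd10 were above background on no array. Of the co-receptors, Lrp5 read 0.14, 0.32 and 0.64 (43.5) and Lrp6 -2.04, -2.15 and -2.20 (15.3), and Ror2 lay at the 14.7 while Ror1 was not detected.

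Cytoplasmic transducers were detected for 19 of 20. Ctnnb1, which encodes β-catenin, read 4.81, 4.61 and 4.56, at the 95.6 percentile, and Csnk1a1, the kinase that first marks it for destruction, lay at the 91.8. The scaffolds Axin1 and Apc were at the 37.96 and 40.7 percentiles, the kinases Gsk3b and Gsk3a at the 32.1 and 28.4, and Dvl1, Dvl2 and Dvl3 at the 63.7, 26.7 and 8.43. The one member not detected was Axin2, a feedback target of the pathway, which read -7.58, -6.96 and -5.61 and was above background on no array. Among nuclear effectors (11 of 14 detected), Tcf7l1 and Tcf7l2 lay at the 64.5 and 58.7 percentiles, Tcf7 at the 13.4, and Lef1 read -5.56, -6.77 and -6.89 and was above background on no array. The corepressors Tle1, Tle2 and Tle3 were detected at the 61.9, 47.4 and 26.7 percentiles, and Tle4 was above background on no array.

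Antagonists and feedback inhibitors were detected for 6 of 22 on the array (27.3%, against 58.8% of all genes). Above background on no array were 14 of the 22, and 5470 of all 19512 genes. Secreted antagonists were nearly all at background: Dkk1, Dkk2, Dkk3 and Dkk4, Sfrp1, Sfrp4 and Sfrp5, Frzb and Wif1 were above background on no array, and Sfrp2 passed on 2. Notum, a secreted Wnt deacylase, read -0.71, -0.57 and -0.63 (29.7 percentile), and Sost was dim (3.49). Apcdd1, a membrane inhibitor, lay at the 44.4. Dact2, a Dishevelled-binding protein, was the brightest of the list at the 73.1, but by a probe named from the files' symbol, while its probe named by accession averaged -0.95. The feedback genes Nkd1 and Nkd2 were above background on no array.

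**Figure D4:**
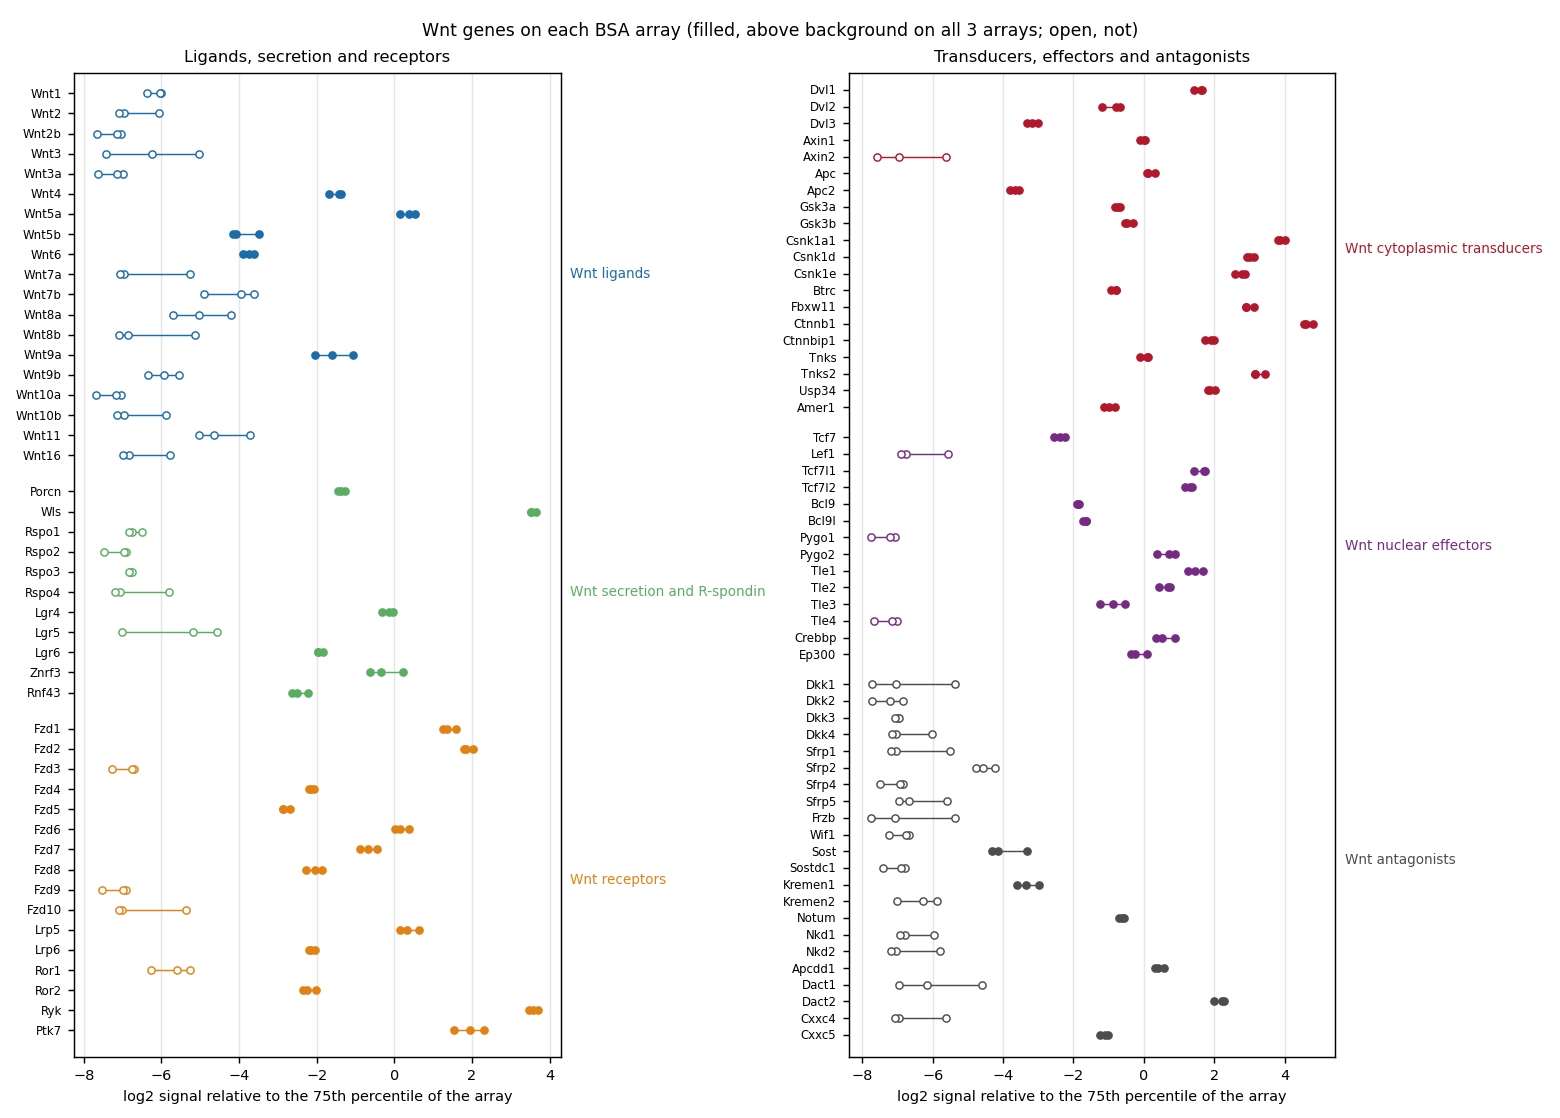
Log2 signal, relative to the array's 75th percentile (x axes), of Wnt genes (y axes) on each of the 3 BSA arrays, grouped by role. Each point is 1 array; filled points are genes above background on all 3 arrays and open points are genes that were not. Transducers are filled for 19 of 20 genes, ligands for 5 of 19 and antagonists for 6 of 22.

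Innate immune genes were described from sensor to effector. Cells sense microbial products with Toll-like receptors at membranes and nucleic acids with cytosolic sensors, whose signals induce interferons and inflammatory cytokines. Interferons act through factors such as Stat2 and Irf9 on interferon-stimulated genes, many of which carry an interferon-stimulated response element in their promoter. Of 25 sensors and adaptors, 21 were detected (84.0%, against 58.8% of all genes), at a median percentile of 40.6. Cd14, a co-receptor for lipopolysaccharide, read 2.46, 2.69 and 2.53 on replicates 1, 2 and 3 (78.9 percentile), and its partners Tlr4 and Ly96 lay at the 34.1 and 47.1. Tlr2 read 1.63, 1.46 and 1.45 (62.7). The nucleic acid sensor Cgas, its adaptor Sting1, and the RNA sensor Rigi (Ddx58) with its adaptor Mavs lay at the 44.04, 70.4, 40.6 and 50.3 percentiles. Ifih1 and Tlr3, which bind double-stranded RNA, were dim (15.5 and 11.5), and Tlr8, Aim2 and Nlrp3 were above background on no array.

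Of the interferon regulators, Irf1 read 3.96, 3.86 and 3.78 (91.6 percentile), Irf3 2.82, 2.87 and 2.74 (81.8) and Irf7 -1.54, -1.58 and -1.62 (19.6). Irf1 and Irf3 thus lay in the upper part of the order and Irf7 in the lower. Stat2 and Irf9 lay at the 21.4 and 34.6 percentiles. Irf4 was above background on no array, and Irf8 on replicate 1 alone. The interferon genes of the list were not detected. Ifnb1 read -5.52, -6.82 and -6.92, Ifng -7.65, -7.001 and -6.48, Ifna1 -6.55, -7.04 and -7.16 and Ifna4 -7.57, -6.98 and -7.08. None of these was above background on any array, and Ifnl3 passed on replicate 1 alone. Other interferon genes were not listed.

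Interferon-stimulated genes were detected for 30 of 32 on the array (93.8%, against 58.8% of all genes). Their median percentile was 47.0, with 2 of the 30 in the brightest 10%. Ifitm3, an antiviral membrane protein, read 5.99, 6.19 and 6.12 on replicates 1, 2 and 3 (98.7 percentile), and Ifi27 4.77, 4.73 and 4.70 (95.9). Isg15, a ubiquitin-like modifier, read 1.79, 1.81 and 1.55 (66.2) and Bst2, tetherin, 1.83, 1.94 and 1.49 (66.9). Ifi204, Rtp4 and Ifi35 lay at the 78.96, 75.5 and 75.1 percentiles. The guanylate-binding protein Gbp2 and the immunity-related GTPases Irgm1, Iigp1 and Igtp lay at the 63.3, 64.3, 56.2 and 52.8. All of these lay above the median of the detected genes.

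Other antiviral effectors were detected but lower. Ifit3, Ifit1 and Ifit2, which bind foreign RNA, lay at the 47.1, 37.3 and 32.7 percentiles, and Rsad2 (viperin) at the 19.2. In the 2′,5′-oligoadenylate synthetase family, Oasl2 and Oas1a lay at the 46.9 and 46.2 percentiles, Oas2 at the 27.95, and Oasl1, Oas3 and Oas1b between the 10.6 and 11.9, while Oas1g was above background on no array. Mx2 and Mx1 lay at the 20.4 and 4.18. Usp18, which removes Isg15 from proteins, lay at the 28.8. Several of these are members of near-identical families, so that part of a signal may belong to a relative.

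Promoters of this list are shown because its members were detected together in cells where no listed interferon gene was detected. RefSeq promoter sequences of GRCm38.p6 were matched by symbol for 22 of the 32 genes, and for 15457 of 19512 genes in all. The core of the interferon-stimulated response element was searched as GAAANNGAA on both strands within 250 bases before the annotated start, with overlapping matches counted, at the first start listed for a gene. It was present in 14 of the 22 (63.6%) and in 6.86% of all promoters of the same length. With a sequence for fewer than 80% of the list, the count is void as a check of the list and describes the 22 genes alone. The match of letters is a description and does not show a bound site. The 200 bases before the start of 5 genes follow, on the strand of the gene and 5′ to 3′, with matches in capitals. They are Isg15 on the minus strand at chr4:156200819-156201018, Ifit1 on the plus strand at chr19:34640689-34640888, Ifit3 on the plus strand at chr19:34583329-34583528, Bst2 on the minus strand at chr8:71537473-71537672 and Gbp2 on the plus strand at chr3:142620463-142620662.
Isg15: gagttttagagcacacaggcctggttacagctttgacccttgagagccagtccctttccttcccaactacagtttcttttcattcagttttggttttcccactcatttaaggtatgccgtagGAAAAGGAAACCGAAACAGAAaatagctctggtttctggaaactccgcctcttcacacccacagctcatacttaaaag
Ifit1: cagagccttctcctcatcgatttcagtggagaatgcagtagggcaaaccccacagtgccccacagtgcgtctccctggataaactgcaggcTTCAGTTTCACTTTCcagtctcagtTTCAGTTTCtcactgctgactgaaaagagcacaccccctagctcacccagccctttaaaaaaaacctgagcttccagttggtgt
Ifit3: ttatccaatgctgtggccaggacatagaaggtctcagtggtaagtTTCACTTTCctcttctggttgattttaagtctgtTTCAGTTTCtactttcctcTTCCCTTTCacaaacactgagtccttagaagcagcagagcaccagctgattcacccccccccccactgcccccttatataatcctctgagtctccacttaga
Bst2: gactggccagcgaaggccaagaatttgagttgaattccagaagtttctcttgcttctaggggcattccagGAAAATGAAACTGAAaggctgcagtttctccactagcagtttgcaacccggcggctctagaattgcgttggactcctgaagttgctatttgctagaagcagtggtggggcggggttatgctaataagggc
Gbp2: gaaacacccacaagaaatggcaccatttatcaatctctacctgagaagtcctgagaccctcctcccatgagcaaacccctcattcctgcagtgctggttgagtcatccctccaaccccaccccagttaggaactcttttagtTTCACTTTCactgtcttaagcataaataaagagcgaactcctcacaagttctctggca
Isg15, Ifit1 and Ifit3 held 3 matches each, Bst2 held 2 and Gbp2 held 1; a run of capitals longer than 9 bases holds overlapping matches. The match was absent in 8 of the 22, Ifitm3, Ifitm1 and Ifi35 among them, although Ifitm3 had the highest signal of the list.

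**Figure D5:**
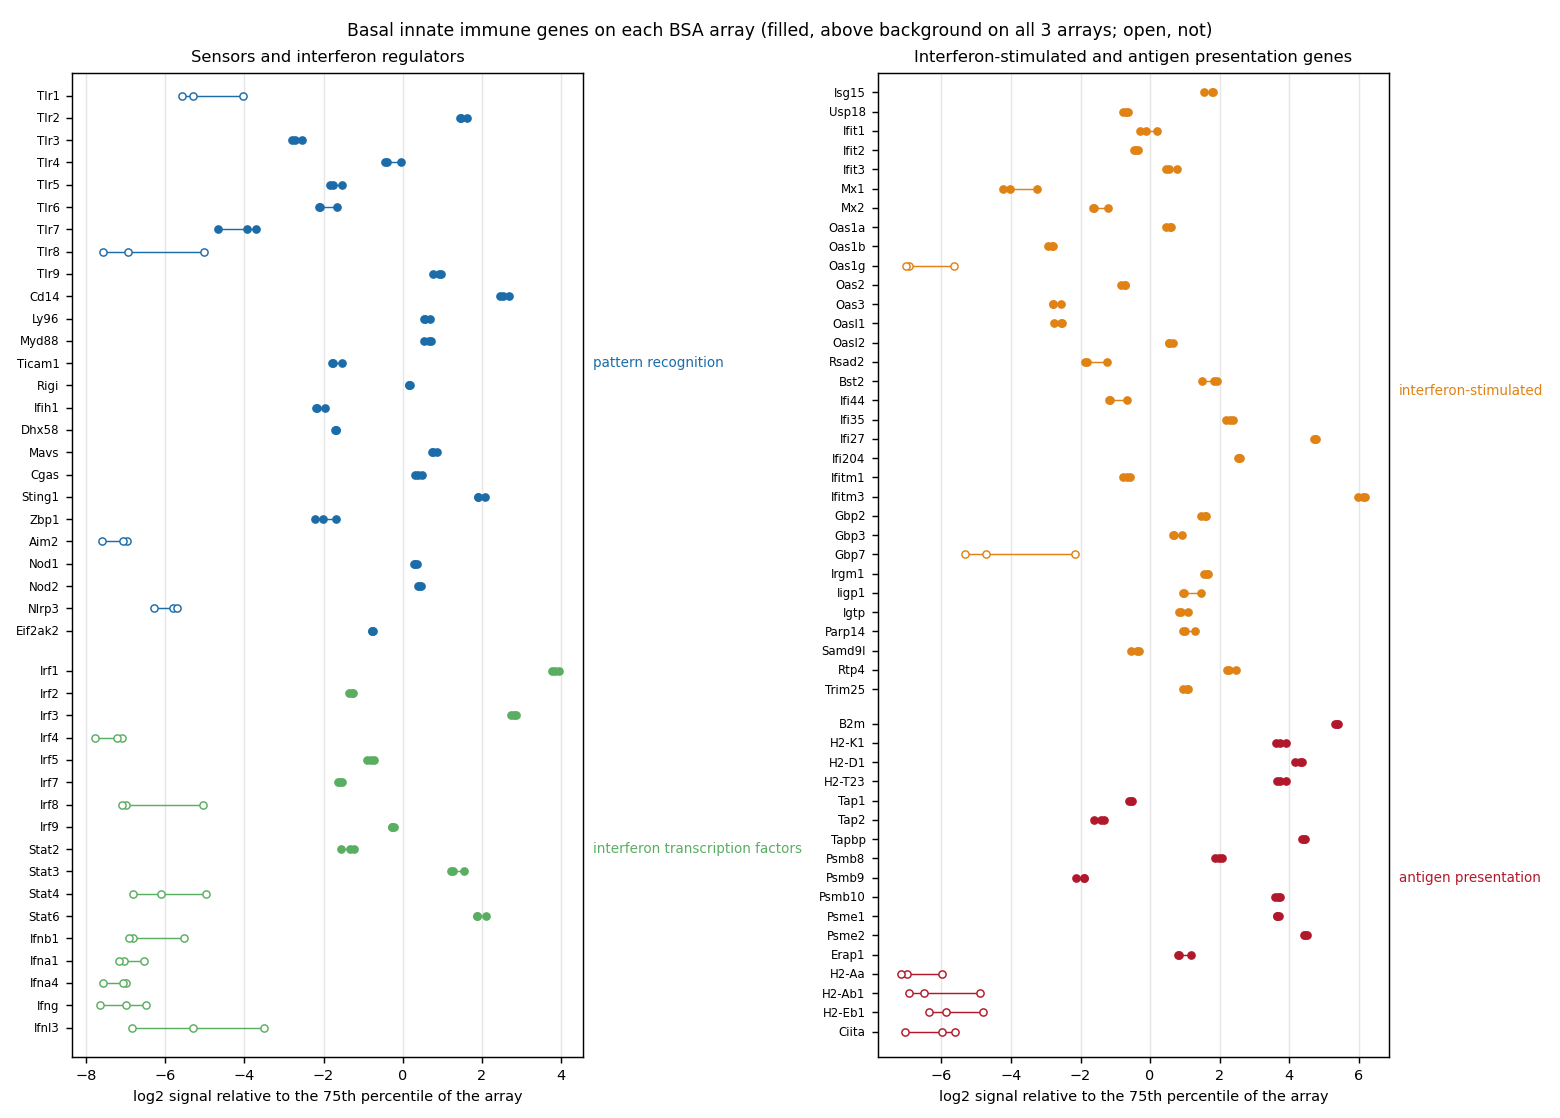
Log2 signal, relative to the array's 75th percentile (x axes), of innate immune genes (y axes) on each of the 3 BSA arrays. Each point is 1 array; filled points are genes above background on all 3 arrays and open points are genes that were not. The listed interferon genes are open, whereas 30 of 32 interferon-stimulated genes are filled.

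Antigen presentation genes of class I stood high. In the list as a whole 13 of 17 on the array were detected (76.5%, against 58.8% of all genes). Their median percentile was 89.997, and 6 of the 13 lay in the brightest 10%. B2m, the light chain of class I molecules, read 5.33, 5.41 and 5.37 on replicates 1, 2 and 3 (97.6 percentile). The heavy chain genes H2-D1, H2-K1 and H2-T23 lay at the 94.1, 90.7 and 90.8, and these near-identical genes may share signal. Psme2, Tapbp, Psme1 and Psmb10 lay at the 94.9, 94.7, 89.96 and 89.996 percentiles. The peptide transporters Tap1 and Tap2 and the immunoproteasome subunit Psmb9 were lower (30.6, 20.8 and 16.4). The class II genes H2-Aa, H2-Ab1 and H2-Eb1 and their activator Ciita were not detected.

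Chemokines and cytokines were detected for 20 of 35 on the array (57.1%, against 58.8% of all genes). Of the 20, 6 lay in the brightest 10%. Mif read 6.18, 6.52 and 6.37 (98.9 percentile), Cxcl5, a neutrophil attractant, 5.96, 5.97 and 6.01 (98.5), Ccl2, a monocyte attractant, 5.42, 5.46 and 5.43 (97.7) and Ccl7 4.56, 4.72 and 4.67 (95.6). Cxcl12, a stromal chemokine, and Cx3cl1 lay at the 94.6 and 92.3 percentiles. These 6 read between 3.95 and 6.52 on every array. Csf1, the macrophage growth factor, lay at the 85.8, and Ccl5 and Cxcl10, chemokines induced by interferon and NF-κB, at the 65.3 and 61.04. Il6 was dim (-1.27, -1.53 and -1.54, 20.7), and Il1a, Il1b, Tnf, Csf2, Cxcl1 and Cxcl2 were above background on no array.

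Acute phase and complement genes were detected for 16 of 31 (51.6%, against 58.8% of all genes), and none lay in the brightest 10%. Ptx3, a secreted pattern recognition protein, read 3.69, 3.62 and 3.49 (89.5 percentile) and Cp, ceruloplasmin, 3.38, 3.30 and 3.41 (87.6). Orm1 and Lcn2 lay at the 74.9 and 69.8, C1ra at the 71.2 and C3 at the 57.3. The other probe of C3 averaged -6.53 and was above background on no array. Saa1 and Saa3 were dim (24.3 and 11.3). The percentile of Masp1, 76.2, came from a probe named by the files' symbol, and both of its probes named by accession were not detected. C1qa, C1qc, Cfb, Cfd, Cd55 and Cd46 were above background on no array.

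Genes of NF-κB, the factor that drives many inflammatory genes, were detected for 18 of 19 (94.7%, against 58.8% of all genes). Nfkbia, its inhibitor and target, read 4.35, 4.45 and 4.18 (94.3 percentile). The subunits Nfkb2, Rela, Nfkb1 and Relb lay at the 60.9, 54.6, 53.8 and 50.9, with Rel above background on replicate 1 alone. The feedback regulator Tnfaip3 (A20) was lower, at the 22.2. Among proliferation genes 25 of 27 were detected (92.6%, against 58.8% of all genes). Their median percentile was 83.1 (81.0 to 85.1 over arrays), after 24 h in plain DMEM. Pcna, the clamp of DNA synthesis, read 5.26, 5.36 and 5.35 (97.5 percentile), Mcm6 lay at the 95.9, Tyms at the 95.1, Mki67 at the 94.5, Ccna2 at the 91.03 and Ccnd1, cyclin D1, at the 87.97. The cell cycle inhibitor Cdkn1a lay at the 80.9, while Cdkn2a (0 of 1 probe, -7.62, -6.99 and -7.12) and Cdkn2b were above background on no array. Cdkn1b was at the 83.1 by a probe named from the files' symbol, and its probes named by accession averaged -4.22 and -6.93.

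The 20 brightest genes were headed by Fth1, the ferritin heavy chain, which read 8.83, 8.66 and 8.61 on replicates 1, 2 and 3. Of the 20, 11 encode ribosomal proteins, with Rplp0 and Rps2 next after Fth1. The other members were Lgals1 (galectin-1), S100a4, Ftl1 (ferritin light chain), S100a6, Eef1a1, Ubb, Rack1 and Ppia. Housekeeping genes as a list were all detected, 18 of 18, at a median percentile of 98.96, but Polr2a lay at the 14.5 and Tbp at the 48.4.

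Few detected genes varied between the 3 monolayers. The range over the arrays exceeded 1 on the log2 scale for 116 of the 11477 detected genes (1.01%), and 105 of the 116 were in the dimmest 25%. Among the 10 of largest range, 9 lay under the 25th percentile. The exception was Ptprz1, a receptor protein tyrosine phosphatase, which read 3.95, 1.48 and 1.95 on replicates 1, 2 and 3, at the 77.5 percentile. The dim ones were Grap2, Slc6a16, Pcdhga4, Gja4, Slc22a16, Olfr767, C130071C03Rik, Clic3 and Vstm4, whose largest SD was 1.28. Replicate 1 lay 1 or more from the mean of the other arrays in 44 detected genes, replicate 2 in 24 and replicate 3 in 38. Of the lineage markers, Pdgfra had the largest range among those detected in the mesenchymal class, from 1.13 to 1.46.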

How the data were processed

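The authors labeled cRNA of each monolayer with a single dye and scanned the arrays with Agilent Feature Extraction 9.5.3.1, per the submitters' processing notes. The deposited scanner files hold, for each spot, an intensity after background subtraction, flags of quality and a mark of signal well above background. A second deposited table holds ratio values, each intensity divided by the 75th percentile of its array by the authors, and was used as an alternative. The genome build of the probes is not given in the sources used here.

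Only the 3 BSA arrays were analysed here. Spots flagged as uneven or as outliers were left out (87, 105 and 89 of 43379), spots of 1 probe were averaged, and log2 values were taken relative to the array's 75th percentile (951, 1146 and 1081 intensity units). No spot was saturated. A probe printed several times was above background when at least 0.5 of its spots were. Of 41174 probes, 23075 were named by accession through RefSeq on GRCm38.p6, 6582 by the symbol of the files and 3077 by an older symbol, and 21492 were detected. Gene percentiles came from python 3.11.15 with numpy 2.4.6, pandas 2.3.3 and scipy 1.17.1, plots from matplotlib 3.10.9 and the normexp alternative from limma 3.58.1 in R 4.3.3. The ranking was tested on simulated data in which the brightest probe of a gene carried its true level, so probe affinity was not tested.

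Members and the 32 lists (735 genes, 728 of them on the array) were chosen with earlier results of these data known, so detection of a list is a description and not a test. Any list member could be named, the markers of cell types are given by array, and beside them the 20 brightest and the 10 most variable detected genes. Grhl3, Hspg2, Dact3, Ifit3b, Xaf1, Nlrc5 and Lif matched no probe by name. Some list members, counted with their lists, are not reported here by name and not drawn in the plots by array. The number of arrays, 3, limits the precision, and the spread between them is that of separate monolayers.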

Additional observations from a re-analysis of the deposited data

How the results depend on the processing

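No paired analysis was possible because every result comes from 1 group and from no test. The number of genes detected was 11477 and lay between 9971 and 13392 under the alternatives run. Of the 32 lists, 26 kept a count within 1.5 times the main one under every alternative. With the scanner's less strict flag, which asks only for a signal above background by its own significance test, 15 of the epithelial keratin and adhesion genes, 7 epithelial regulators, 5 endothelial, 5 skeletal muscle and 11 Wnt ligand genes were detected. With 2 of 3 arrays required, 8 genes were detected in the keratin and adhesion list and 8 among Wnt ligands. Leaving out each array in turn gave 5 to 8 for both lists, the 8 without BSA replicate 2. When more than 0.5 of a gene's probes had to be detected, 4 leukocyte genes and 2 Wnt ligands were. Median percentiles of the lists fell by up to 2.89 points and rose by up to 1.93 with normexp, and shifted by 0.07 or less with quantile normalization or the deposited ratios. They fell by up to 24.7 points (keratins and adhesion) with the mean of detected probes. They fell by up to 25.4 (contractile genes) when probes named by accession alone were kept, an alternative chosen after seeing the data. The keratin and adhesion median fell by 37.7 points without replicate 2. Ranking among probes raised every median, by up to 14.1, and the less strict flag moved them by a median of 4.08, with the largest fall 49.3 (skeletal muscle) and the largest rise 10.3. Leaving out saturated genes changed nothing, since none was saturated.

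Signal over background limits these results: a gene not detected may be expressed below the floor, which was lower on replicate 1. Probe affinity limits the order of genes, and 34.5% of the genes with several probes and at least 1 detected also had a probe that was not.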

Other observations

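Of the 21492 detected probes, 2592 had no current gene name and entered no list. Of the 728 list genes on the array, 467 were detected, and 66 of the 261 others were above background on replicate 1 alone. The probe of Cxcr6, a chemokine receptor, read -5.25, -3.93 and -7.20 on replicates 1, 2 and 3 and passed on 2 arrays. The brightest probe of Grhl1, an epithelial regulator, read -6.77, -6.92 and -1.38, with replicate 3 apart from the other arrays.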
